A study of Homo sapiens with 6 samples.

Results

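The SOXF factors SOX7, SOX17 and SOX18, the haemato-endothelial factors GATA2, TAL1 and LMO2, and MEF2C, HHEX, NR2F2 and PROX1 are transcription factors or cofactors that set the identity of endothelial cells. They were examined as a group of 10 named genes, through every probe set of the array whose platform annotation gave exactly 1 of these symbols. This rule found 23 probe sets for 9 of the 10 genes, among 54613 probe sets and 19775 genes tested. NR2F2 had no probe set under that rule and its level was not analysed here.

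The cells were human umbilical vein endothelial cells (HUVECs), primary cells that line the umbilical cord's vein, grown in endothelial medium with serum and growth factors. One group was transfected with an siRNA against the long noncoding RNA ANRIL, and the other with a scrambled control siRNA, using the same reagent. Each group had 3 samples, each on 1 Affymetrix U133 Plus 2.0 array. The time after transfection is not given in the sources used here, and nothing states that the 3 samples came from separate donors, so the p-values measure the spread between these samples, which may be technical. The comparison asks which genes lie downstream of ANRIL.

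SOXF proteins bind DNA through an HMG box and act redundantly in vessel formation. SOX17 is best known for arterial identity, and SOX18 for switching on PROX1, the master regulator of lymphatic endothelium, in cells of the embryonic vein. NR2F2, also called COUP-TFII, is the nuclear receptor that maintains venous identity and is a partner of PROX1. GATA2, TAL1 and LMO2 form a complex shared by blood and endothelial cells, in which LMO2 bridges the DNA-binding proteins. MEF2C and HHEX act in early vascular development.

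The siRNA used against ANRIL is printed because all differences below follow its transfection. The sense strand is given first, and in the antisense strand the seed, bases 2 to 8, is in capitals.
sense: ggauaugugccaugaguaagaauaa
antisense: uUAUUCUUacucauggcacauauccau
Which other transcripts the seed could pair with was not analysed here.

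Upstream sequence is printed for 2 of the haemato-endothelial genes, TAL1 and GATA2. Sequence farther from the start sites was not searched. RefSeq promoter entries in the GRCh38.p14 build were at hand for 5 of the 10 genes. Each printed run is the 250 bases before a start site, on the minus strand, and letters matching a searched motif on either strand are in capitals.
TAL1, chr1:47232336-47232585: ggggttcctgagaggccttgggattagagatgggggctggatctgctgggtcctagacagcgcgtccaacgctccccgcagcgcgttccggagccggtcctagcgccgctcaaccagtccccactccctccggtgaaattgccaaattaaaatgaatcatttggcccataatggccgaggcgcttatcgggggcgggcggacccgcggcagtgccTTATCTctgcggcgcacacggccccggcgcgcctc
GATA2, farther start, chr3:128493202-128493451: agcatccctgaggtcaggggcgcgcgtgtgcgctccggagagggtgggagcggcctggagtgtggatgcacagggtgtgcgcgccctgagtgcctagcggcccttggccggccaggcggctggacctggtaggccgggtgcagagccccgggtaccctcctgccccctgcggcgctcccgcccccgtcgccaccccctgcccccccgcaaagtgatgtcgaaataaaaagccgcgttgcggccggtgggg
GATA2, nearer start, chr3:128488531-128488780: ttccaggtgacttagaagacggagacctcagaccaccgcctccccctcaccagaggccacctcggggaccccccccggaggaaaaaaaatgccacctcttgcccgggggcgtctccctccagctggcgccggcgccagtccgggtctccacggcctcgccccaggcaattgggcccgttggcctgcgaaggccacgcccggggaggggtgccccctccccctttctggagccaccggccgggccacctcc
The motifs searched on both strands were AGATAA for GATA factors, CCGGAAG for ETS factors, AACAAT for SOX factors and CAGATG, an E-box bound by TAL1. None of them overlaps another in these windows. The TAL1 window held 1 GATA match on the opposite strand, whose farthest base lies 35 bases before the start. Of all 35116 promoter windows of the same length, 9.17% held AGATAA, 8.52% CCGGAAG, 8.98% AACAAT and 12.2% CAGATG, so 1 match is common. Neither GATA2 window held any of the 4 motifs. Among the other members with entries, only MEF2C had matches, 1 AACAAT in each of 3 of its 7 windows, and another TAL1 window, not printed, had none.

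The deposited values are log2 signals made by RMA, and since probe sets differ in how well they bind, differences of signal between genes are given only to compare the arrays, not as levels of the genes. Across probe sets, any pair of arrays from the same group had a Pearson r of 0.9971 to 0.9977, and pairs from different groups 0.9964 to 0.9974. ANRIL, listed as CDKN2B-AS1, was read near the floor by 1 probe set (4.03 ± 0.07 after control siRNA and 3.93 ± 0.21 after ANRIL siRNA, mean ± SD, n = 3), which gave no check of the knockdown. All 14 endothelial markers, among them CDH5, PECAM1 and VWF, lay above percentile 87 of mean signal. The median difference of a probe set changed with its brightness, from 0.06 in decile 4 of mean signal to −0.08 in decile 10, the brightest, and 87.1% of probe sets in decile 10 were lower after ANRIL siRNA. The 3′ minus 5′ signal of ACTB, a measure of RNA integrity, was 0.54 ± 0.05 after control siRNA and 0.72 ± 0.13 after ANRIL siRNA (exact permutation test, two-sided p = 0.2; the design allows no p under 0.1). For GAPDH it was −0.0013 ± 0.0121 and 0.0576 ± 0.0297 (exact p = 0.1). The part of this shift in the results below was not tested.

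Among the 23 probe sets, SOX7 was lower after ANRIL siRNA at both of its probe sets and GATA2 was higher at 1 of 3, while the other 7 measured genes had 95% intervals that included 0 at every probe set. No member passed the limma test with Benjamini-Hochberg adjustment at 0.05, with adjusted p-values from 0.22 upwards, and neither did any other feature, so that 0% of all 54613 probe sets and 0% of all 19775 genes were called. At an unadjusted p under 0.05 limma gave 2 member probe sets lower and 1 higher, against 6.14% of all probe sets lower and 8.96% higher. The groups' arrays lay fully apart at 1 member probe set in the lower direction, where 9.97% of all probe sets behaved so, and at 2 in the higher direction, where the share was 11%. With 23 probe sets these counts are near the background. Below 0 lay 14 of the 23, or 60.9%, against 46.1% of all probe sets, and among those above the median signal 64.7% against 61.0%. The median difference was −0.03 over the member probe sets and 0.01 over all.

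**Figure D1:**
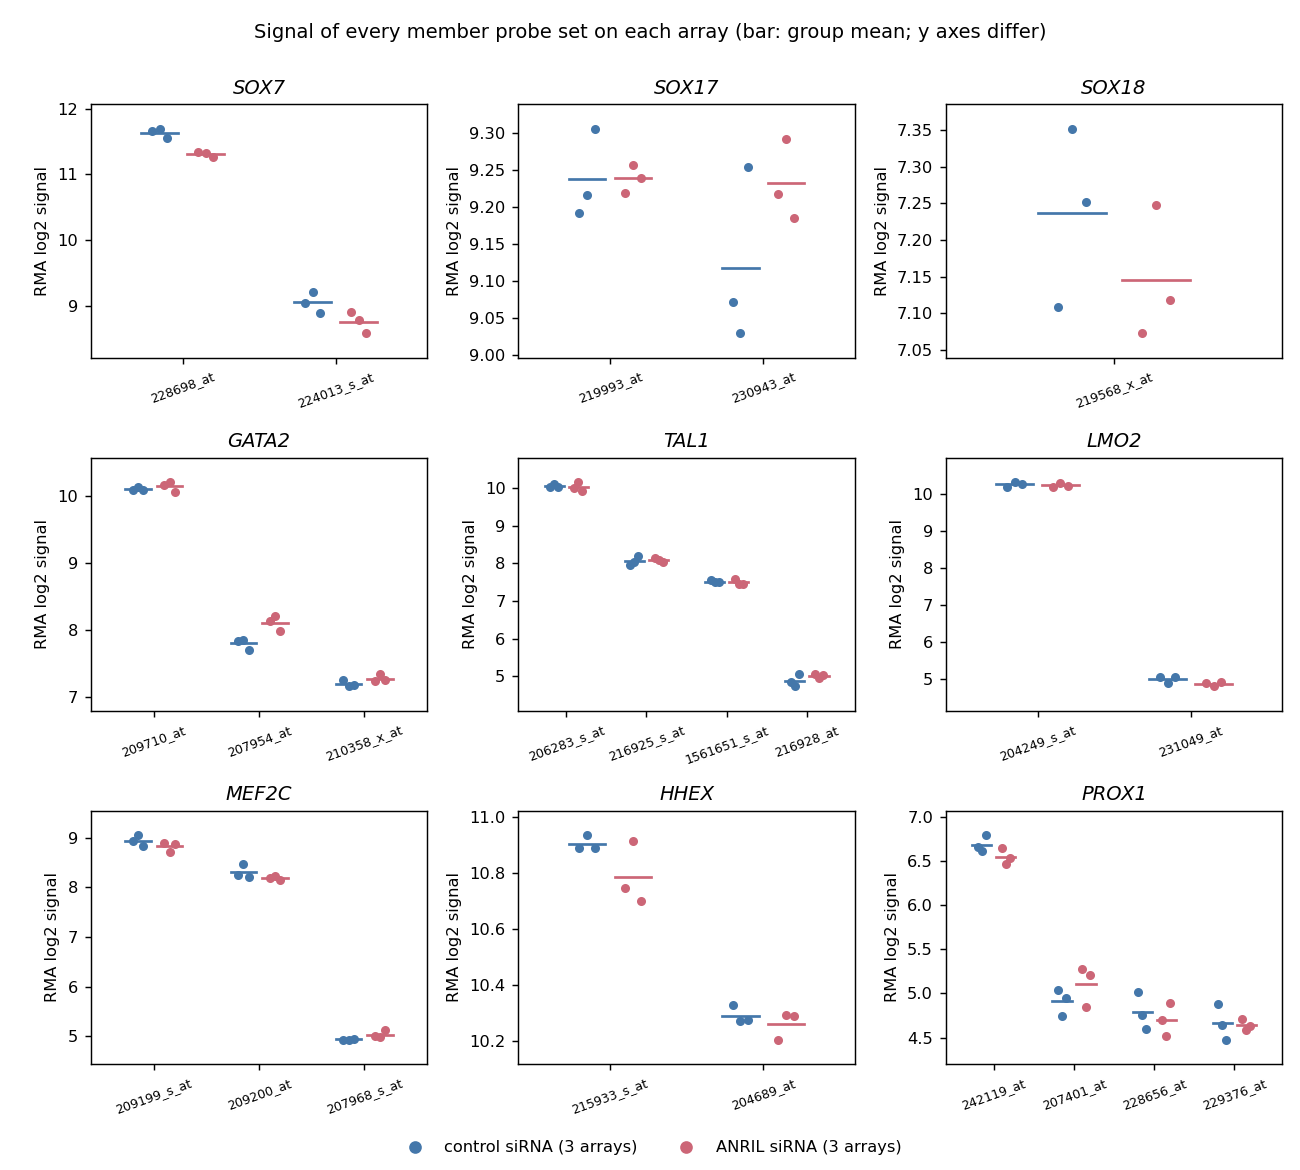
RMA log2 signal (vertical axis, scaled separately for each gene) of the 23 member probe sets on each of the 3 control siRNA arrays (blue) and 3 ANRIL siRNA arrays (red), with bars at group means. At SOX7 228698_at all ANRIL siRNA arrays lie below all controls (11.31 against 11.63 on average), and at GATA2 207954_at all lie above (8.11 against 7.80).

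SOX7, an HMG box factor that acts with SOX17 and SOX18 in vessel growth, had the lowest differences of the group. At its brighter probe set, 228698_at, the control arrays read 11.65, 11.69 and 11.56 and the ANRIL siRNA arrays 11.33, 11.32 and 11.27. Every ANRIL siRNA array thus lay below every control array. This is a difference of −0.33 ± 0.07 (SE, with 3 arrays a side; 95% interval −0.47 to −0.18), or a 1.25-fold lower signal. At the dimmer probe set, 224013_s_at, the control arrays read 9.04, 9.21 and 8.89 and the ANRIL siRNA arrays 8.90, 8.79 and 8.58. Here ANRIL siRNA replicate 1 lay just above control replicate 3, so the groups overlapped, and the difference was −0.29 ± 0.10 (95% interval −0.52 to −0.06). By limma the adjusted p over all probe sets was 0.22 and 0.259, and over all genes, with the brighter probe set, 0.129.

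Both SOX7 differences were lower than those of most probe sets of like brightness. The 10th percentile of the difference was −0.18 in decile 10 of signal, which holds 228698_at, and −0.19 in decile 9, which holds 224013_s_at. At 34.8% of the probe sets of decile 10 all ANRIL siRNA arrays lay below all controls. After cyclic loess normalization, which takes out a trend with brightness, SOX7 was at −0.24 and at −0.23 in the same order of probe sets. With limma's intensity-trended robust prior SOX7 passed over all genes (adjusted p = 0.000726), where 2.74% of all genes were called in either direction. With genes above the median signal only it passed narrowly (adjusted p = 0.0497), where 0.246% were called. With cyclic loess and the trended prior together, a combination chosen after the data were seen, its adjusted p was 0.00731 and 0.678% of genes were called.

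SOX17, the arterial member of the family, read 9.19, 9.22 and 9.31 after control siRNA and 9.22, 9.26 and 9.24 after ANRIL siRNA at its probe set 219993_at. These ranges lie within each other, and the difference was 0.00 ± 0.06 (95% interval −0.14 to 0.14), with the sign turning to −0.050 when arrays were centred on their medians. At 230943_at the values were 9.07, 9.03 and 9.25 against 9.22, 9.29 and 9.19, with a difference of 0.11 ± 0.08 (limma adjusted p = 0.502). In decile 9 of signal, where both probe sets lie, 79.3% of all probe sets were lower after ANRIL siRNA. SOX18, the factor that induces PROX1 in the embryo, was read by 1 probe set only, 219568_x_at, whose suffix marks probes that can also match other transcripts. It read 7.11, 7.35 and 7.25 after control siRNA and 7.07, 7.25 and 7.12 after ANRIL siRNA, with overlapping groups and a difference of −0.09 ± 0.08 (adjusted p = 0.617).

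Within an array, the log2 signal of SOX7 exceeded that of SOX17 by 2.46, 2.47 and 2.25 after control siRNA and by 2.11, 2.07 and 2.03 after ANRIL siRNA. These log ratios do not overlap between the groups, and their means differ by −0.33. The pair was picked after its values were seen, so it is given without a test.

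GATA2, a zinc finger factor that activates endothelial and blood genes, had 3 probe sets that differed among themselves. At the brightest, 209710_at, the control arrays read 10.09, 10.14 and 10.09 and the ANRIL siRNA arrays 10.17, 10.21 and 10.06. The groups overlapped and the difference was 0.04 ± 0.07, and −0.012 with arrays centred on their medians. At 207954_at the values were 7.84, 7.85 and 7.70 against 8.14, 8.21 and 7.99, and all ANRIL siRNA arrays lay above all controls. That difference was 0.31 ± 0.08 (95% interval 0.14 to 0.49), a 1.24-fold higher signal, and did not pass (limma adjusted p = 0.22). It lay above the 90th percentile of its signal decile, which was 0.12. At 210358_x_at the difference was 0.08 ± 0.07 with overlapping groups (7.25, 7.16 and 7.18 against 7.24, 7.34 and 7.25).

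The signal of 207954_at relative to 209710_at on the same array was −2.25, −2.29 and −2.39 after control siRNA and −2.03, −2.00 and −2.07 after ANRIL siRNA. These values do not overlap, and their means differ by 0.27, in a comparison chosen after the values were seen and given without a test. Which GATA2 transcripts each probe set reads was not analysed here.

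**Figure D2:**
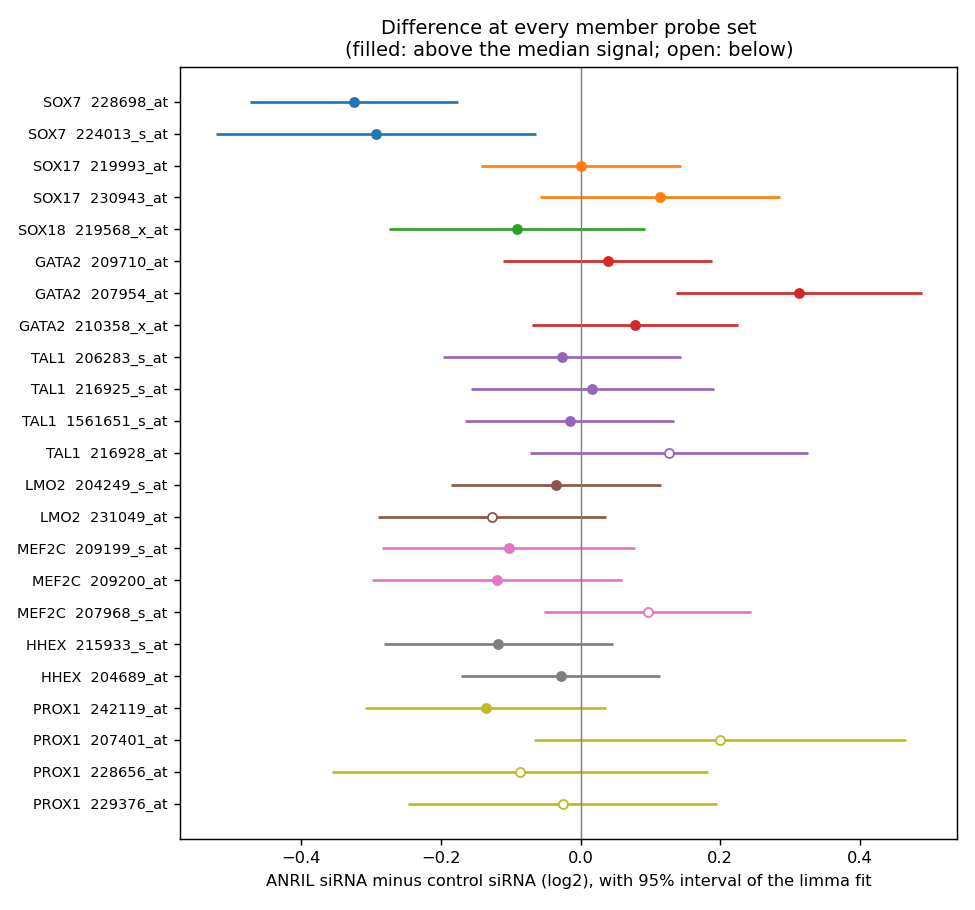
Difference in log2 signal, ANRIL siRNA minus control siRNA (horizontal axis), for the 23 member probe sets, with 95% intervals of the limma fit; filled points lie above the median signal of all probe sets and open points below. The intervals of both SOX7 probe sets and of GATA2 207954_at leave out 0 before adjustment, and those of the other 20 include it.

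TAL1, a basic helix-loop-helix factor also known as SCL, differed little at any of its 4 probe sets. The brightest, 206283_s_at, read 10.02, 10.10 and 10.03 after control siRNA and 10.002, 10.16 and 9.92 after ANRIL siRNA. The ANRIL siRNA values enclosed the control values, and the difference was −0.03 ± 0.08, with the opposite sign after cyclic loess (0.053) and a second quantile normalization (0.060). The next probe sets differed by 0.02 ± 0.08 at 216925_s_at and by −0.02 ± 0.07 at 1561651_s_at. The dimmest, 216928_at, lay at percentile 27.2 of signal and differed by 0.13 ± 0.09.

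LMO2, the LIM-only bridge of that complex, read 10.21, 10.33 and 10.29 after control siRNA and 10.21, 10.30 and 10.22 after ANRIL siRNA at 204249_s_at. The difference was −0.04 ± 0.07, and 0.046 after cyclic loess or 0.051 after a second quantile normalization. Its other probe set, 231049_at, was dim, at percentile 27.3, and differed by −0.13 ± 0.07 with overlapping groups (adjusted p = 0.43). For TAL1 and LMO2 no direction therefore held across scalings.

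MEF2C, a MADS box factor that controls flow-regulated genes such as KLF2, was lower at its brighter probe sets and higher at its dim one. At 209199_s_at it read 8.93, 9.05 and 8.83 against 8.90, 8.72 and 8.88, a difference of −0.10 ± 0.08. At 209200_at the difference was −0.12 ± 0.08, with ANRIL siRNA replicate 2 just above control replicate 3. At 207968_s_at the control arrays read 4.93, 4.93 and 4.94 and the ANRIL siRNA arrays 4.99, 4.98 and 5.12. All ANRIL siRNA arrays lay above the controls there, by 0.10 ± 0.07, at a signal of percentile 27.9 where most probe sets were higher (limma adjusted p = 0.508).

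HHEX, a homeobox repressor of early endothelium, was read by a pair of bright probe sets. At 215933_s_at the control arrays read 10.89, 10.94 and 10.89 and the ANRIL siRNA arrays 10.75, 10.92 and 10.70. ANRIL siRNA replicate 2 lay among the controls and the other two lay below, with a difference of −0.12 ± 0.07 (adjusted p = 0.465). At 204689_at the difference was −0.03 ± 0.06. Both are close to the median of −0.08 for all probe sets of that decile.

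PROX1, the homeobox factor that specifies lymphatic endothelium, was dim, with 3 of its 4 probe sets below percentile 30 of signal. Its brightest, 242119_at at percentile 57.5, read 6.66, 6.61 and 6.79 after control siRNA and 6.65, 6.46 and 6.54 after ANRIL siRNA. ANRIL siRNA replicate 1 lay within the controls and the other two below them, and the difference was −0.14 ± 0.08 (adjusted p = 0.426). The mean over all 4 probe sets was −0.012. The dimmer probe sets differed by 0.20 ± 0.12 at 207401_at, −0.09 ± 0.12 at 228656_at and −0.03 ± 0.10 at 229376_at, all with overlapping groups. At this signal the array's spread, up to 0.24 (SD, n = 3) at 207401_at, was as large as the differences.

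**Figure D3:**
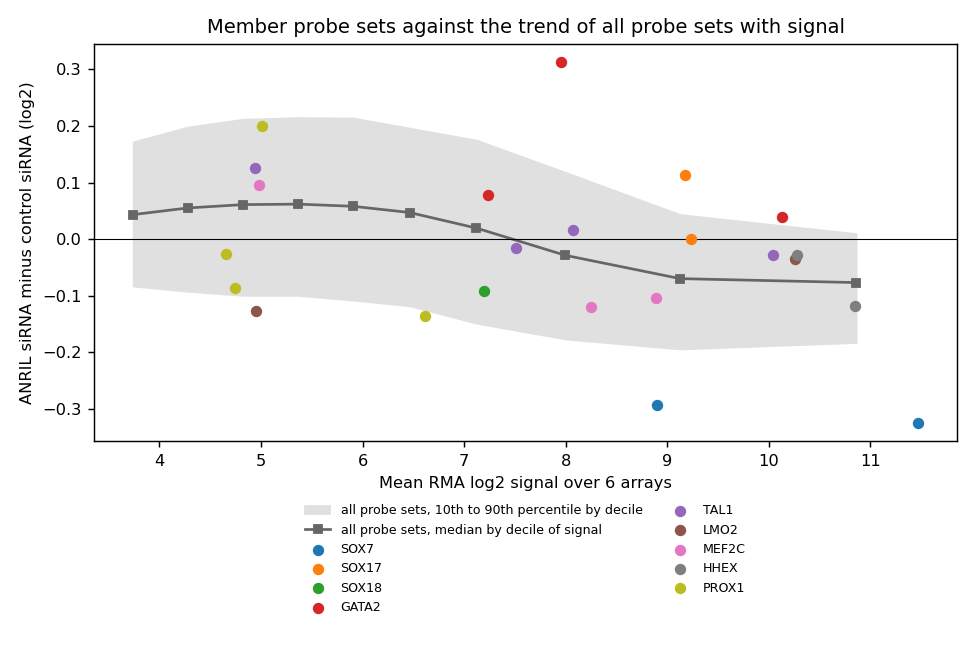
Difference in log2 signal (vertical axis) against mean log2 signal over 6 arrays (horizontal axis) for the 23 member probe sets, with the median (grey line) and 10th to 90th percentile (band) of all probe sets by decile of signal. The SOX7 points at −0.33 and −0.29 lie below the band and GATA2 207954_at at 0.31 above it.

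The arterial, venous and lymphatic factors were to be set against each other within each array, as 3 pairs. Without a probe set for NR2F2 only 1 pair could be computed, that of arterial SOX17 and lymphatic PROX1 at their brightest probe sets. The log2 signal of SOX17 exceeded that of PROX1 by 2.53, 2.61 and 2.51 after control siRNA and by 2.57, 2.79 and 2.70 after ANRIL siRNA. ANRIL siRNA replicate 1 lay within the control range. The mean moved by 0.14, which did not differ beyond the spread (two-sided exact permutation p = 0.2, smallest possible 0.1). It was 0.25 after cyclic loess and after another round of quantile normalization (exact p = 0.1 in both), and 0.069 with the mean of all probe sets of each gene (exact p = 0.7).

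Markers of the vessel types stand in for the missing venous factor only as a description, and NRP2 and FLT4 count in both the venous and the lymphatic list. TEK and VWF of the venous list are also among the 14 endothelial markers, which were all lower. No gene of any list passed over all genes as deposited. Only 16 list genes, those of smallest p named here and below, were read under the alternatives, and the rest were not. Of these 16, NRP2, TIE1, CLDN5, LYVE1, CXCR4, CLU and TEK passed with the intensity-trended robust prior, all lower. Under that prior 2.74% of all genes were called in either direction. NRP2, TIE1, CLDN5 and LYVE1 passed in 3 further alternatives. These were centred arrays (32 of 19775 genes called), genes above the median signal (0.246% called), and cyclic loess with the trended prior (0.678% called). Centring also shifted the median of all genes to −0.05. Of 10 venous markers 9 were lower after ANRIL siRNA (median −0.12), against 51.4% of all genes with a median of −0.0046. The genes of smallest p were NRP2, a co-receptor for VEGF-C (−0.44 ± 0.06), the secreted chaperone CLU (−0.23 ± 0.07) and the angiopoietin receptor TEK (−0.19 ± 0.06). With the mean of all probe sets of a gene NRP2 was at −0.12 and TEK at −0.034. Of 14 arterial markers 7 were lower, with a median of −0.04 that was −0.11 among genes above the median signal or without _s_at and _x_at probe sets, where the venous median was −0.12 in both. The smallest p-values among them were those of the chemokine receptor CXCR4 (−0.52 ± 0.12), the gap junction protein GJA5 (−0.24 ± 0.07) and NOTCH1 (−0.18 ± 0.06). With the mean of all probe sets of a gene CXCR4 was at −0.43, GJA5 at −0.11 and NOTCH1 at −0.13. After cyclic loess they were at −0.45, −0.21 and −0.099. Of 11 lymphatic markers 7 were lower (median −0.04), but 5 (median 0.00070) without control replicate 2 and 5 (median 0.0014) with the mean of all probe sets. There the smallest p-values belonged to NRP2, the hyaluronan receptor LYVE1 (−0.43 ± 0.07) and TFF3, which was higher (0.12 ± 0.06). All of the venous markers and all but 1 of the arterial and lymphatic markers lay above the median signal, where 61.0% of probe sets were lower. Deciles 9 and 10 held 7 of 10 venous, 8 of 14 arterial and 5 of 11 lymphatic markers. In these deciles 79.3% and 87.1% of all probe sets were lower. Whether the vessel types differ from each other was not tested.

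**Figure D4:**
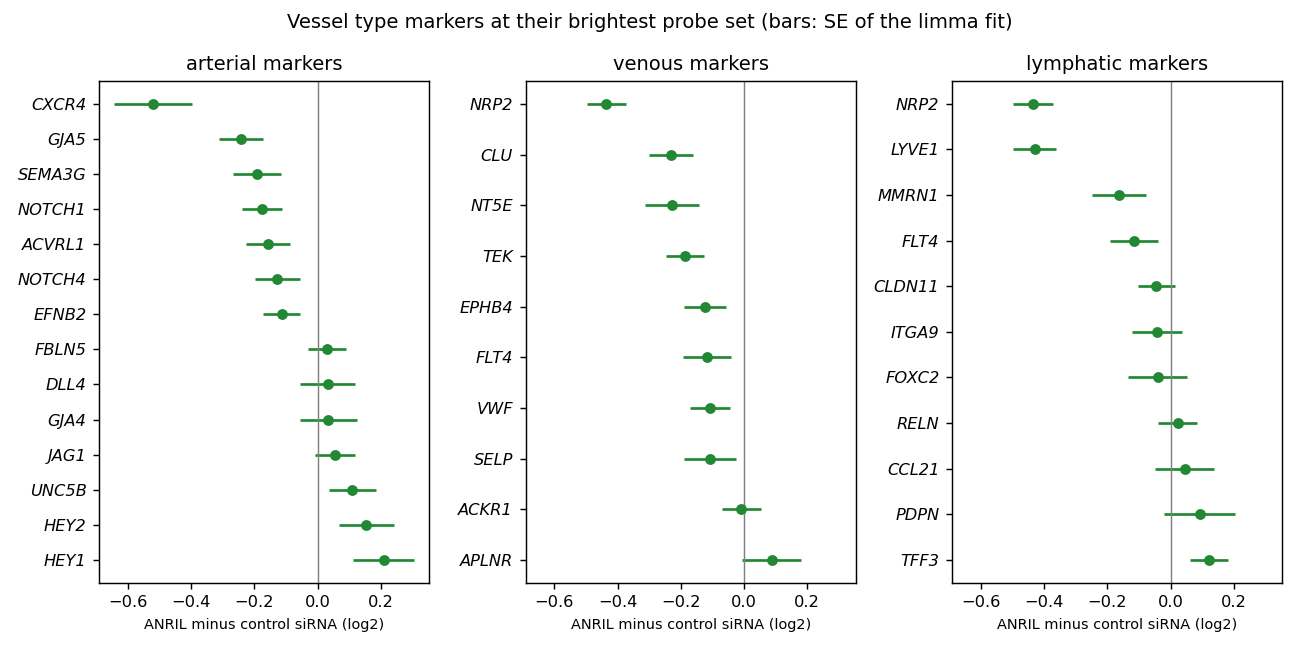
Difference in log2 signal, ANRIL siRNA minus control siRNA (horizontal axis), with SE of the limma fit, for each arterial, venous and lymphatic marker at its brightest probe set. Of the venous markers 9 of 10 lie below 0, of the arterial 7 of 14 and of the lymphatic 7 of 11.

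Partners of the TAL1, LMO2 and GATA complex had a direction that depended on the scaling. Of 22 measured genes 16 were lower (median −0.03), but only 7 were lower after cyclic loess or a second quantile normalization. The smallest p-values were those of LDB2, a LIM domain binding protein (−0.21 ± 0.07, but 0.10 where _s_at and _x_at probe sets were dropped), the GATA cofactor ZFPM1 (0.17 ± 0.07) and the helix-loop-helix partner TCF4 (−0.12 ± 0.07). None passed, with limma adjusted p-values of 0.181, 0.242 and 0.345. The endothelial paralogs GATA3 and GATA6 differed by −0.07 ± 0.06 and −0.04 ± 0.06. TAL1's close relative LYL1 differed by −0.06 ± 0.08.

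Relatives and cofactors of the SOX, MEF2, homeobox and nuclear receptor members were lower at 12 of 20 (median −0.05), with a median of 0.0018 after a second quantile normalization, 0.0025 with the mean of all probe sets and −0.0034 after cyclic loess. HDAC9, a class IIa deacetylase that represses MEF2 factors, was higher (0.26 ± 0.06), with no overlap between the groups and a limma adjusted p of 0.147, but by 0.078 with the mean of its probe sets. The SOXD genes SOX6 (0.21 ± 0.08) and SOX5 (0.24 ± 0.10) were higher too and did not pass (adjusted p = 0.214 and 0.239). The MEF2 paralogs MEF2A and MEF2D differed by −0.08 ± 0.08 and −0.11 ± 0.07. NR2F1, the paralog of NR2F2, differed by 0.01 ± 0.06.

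Genes reported as targets of these factors in endothelium lay lower at 23 of 26 (median −0.14). NRP2, the receptor kinase TIE1 (−0.42 ± 0.06) and the tight junction gene CLDN5 (−0.34 ± 0.06), a SOX18 target, had the smallest p-values, each with a limma adjusted p of 0.125 over all genes. VWF, a GATA target, differed by −0.11 ± 0.06, and the VEGF receptor KDR by −0.10 ± 0.06. Without _s_at and _x_at probe sets TIE1 was at −0.13. All 26 lay above the median signal, and 22 of them in deciles 9 and 10. There 79.3% and 87.1% of all probe sets were lower, so the count of 23 is near the share for bright probe sets. The sizes were larger, as the list's median of −0.14 compares with medians of −0.07 and −0.08 in deciles 9 and 10. All ANRIL siRNA arrays lay below all controls at 15 of the 26, against 24.9% and 34.8% of all probe sets in these deciles. The part of brightness in the list's differences was not tested. After cyclic loess 19 of 26 were lower, with a median of −0.09, and the adjusted p of CLDN5 ranged from 0.00272 to 0.387 over the alternatives. The 14 endothelial markers, which share several of these genes, were all lower and all lay in those deciles, with mean signals of 11.69 to 11.75 on the control arrays and 11.49 to 11.58 on the ANRIL siRNA arrays. In bulk RNA fewer cells of a type and less RNA per cell cannot be told apart.

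The genes GATA3, GATA6, LYL1, MEF2A, MEF2D, NR2F1, VWF and KDR were picked for mention after their values were seen.

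TAL1, LMO2 and GATA2 are blood factors as well, so markers of blood cells were read on the same arrays. Of 13 measured, 11 were higher after ANRIL siRNA (median 0.14), none passed, and their mean signal ran from 6.04 to 6.10 on control arrays and 6.14 to 6.23 on ANRIL siRNA arrays. Only 6 of the 13 lay above the median signal. In deciles 1 to 5 of signal 29.9% to 32.5% of all probe sets were lower. The pan-leukocyte marker PTPRC lay at percentile 14.7 (difference −0.07), the myeloid factor SPI1 at 19.4 (0.06) and the erythroid factor KLF1 at 25.1 (0.01). Brighter were PF4 at 78.0 (−0.03), CD3E at 71.6 (0.22), HBB at 68.4 (0.14), GATA1 at 65.3 (0.03), IKZF1 at 63.6 (0.35) and ITGAM at 50.5 (0.22). All ANRIL siRNA arrays lay above all controls at 3 of the 13, against 11% of all probe sets. These were IKZF1, CD3E and MS4A1 (0.18). Smooth muscle markers were lower at 4 of 9 (mean signals 8.07 to 8.19 and 8.11 to 8.19), fibroblast markers at 5 of 8 (5.90 to 5.95 and 5.92 to 5.95) and epithelial markers at 4 of 7 (6.86 to 6.91 and 6.85 to 6.91), in each case control arrays first. At 3 of the 9 smooth muscle markers all ANRIL siRNA arrays lay below all controls. These were ACTA2 (−0.26), TAGLN (−0.22) and RGS5 (−0.03), in deciles 9 and 10, where 24.9% and 34.8% of all probe sets behaved so. The other 5 that were not lower were higher. The part of other cells in the member values was not tested.

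Genes with the pattern most like each member were sought among 13021 genes above the median signal, by the root mean square distance over the 6 arrays after each gene's own mean was taken off. For SOX7, whose SD over the 6 arrays was 0.17, they were PLPP3, a lipid phosphatase, at a distance of 0.019 and a difference of −0.36, and the ETS factor ELK3, at 0.025 and −0.30. For SOX18 they were HSF1 and TSR1, for MEF2C CPOX and ARPIN, and for PROX1 TREML1 and CIRSR. For HHEX they were ADIRF and the lymphatic growth factor VEGFC, and for LMO2 MALL and BANF1. For SOX17, GATA2 and TAL1 at their brightest probe sets they were UBAP1 and SNRPB, OSCP1 and ESCO1, and MAP3K7 and AQR. With 6 arrays in 2 groups and many genes searched, such closeness is a description of these arrays.

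The differences of SOX7 and of GATA2 at 207954_at kept their signs under every alternative run. At its brighter probe set, or as the mean of both where probe sets were averaged, SOX7 ranged from −0.38 to −0.23 over 16 alternatives. Its dimmer probe set ranged from −0.37 to −0.21 over 15. GATA2 at 207954_at ranged from 0.26 to 0.37 over 15, with limma adjusted p-values from 0.0652 to 0.48.

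**Figure D5:**
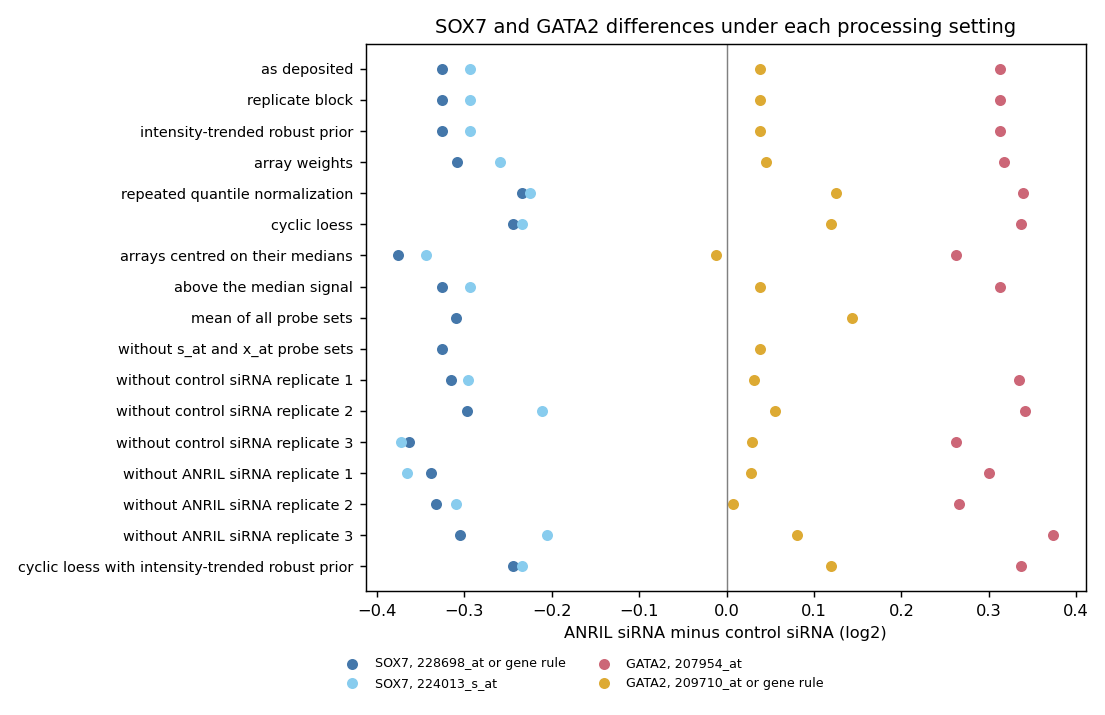
Difference in log2 signal (horizontal axis) of SOX7 and GATA2 probe sets under the deposited values and each alternative setting (vertical axis); where probe sets of a gene were averaged or left out, the gene's value stands in. SOX7 lies between −0.38 and −0.21, GATA2 207954_at between 0.26 and 0.37, and GATA2 209710_at near 0.04 as deposited.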

How the data were processed

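Total RNA from 6 HUVEC samples, 3 per siRNA, was hybridised to 6 arrays. The authors deposited log2 values for 54675 probe sets; per the submitters' processing notes RMA, affy and limma were used, and no versions were given in the sources used here. By design RMA corrects background, quantile normalizes and summarises probes, so a shift of all genes is not visible. The 62 control probe sets of the array were dropped. Of the rest, 41091 had 1 gene symbol, 1801 several and 11721 were not listed in the platform annotation, and symbols were updated by Entrez identifier (41037 matched RefSeq).

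Differences are ANRIL siRNA minus control siRNA, fitted by limma 3.58.1 (lmFit, eBayes) under R 4.3.3, with two-sided p-values adjusted by Benjamini-Hochberg over all probe sets, or over all genes with the probe set of highest mean per gene. The fit was checked on simulated data with independent noise and planted differences larger than any seen here. That check does not bear on small differences or on the trend with brightness. SE and 95% intervals are those of the fit. Single values had exact permutation tests.

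Members, lists and tests were chosen with earlier results of these data known. The text names all members, the 2 genes most like each member, and 8 further list genes. It also names the 3 genes of smallest p in each list, except the lists of cell type markers. CDH5, PECAM1 and some blood and smooth muscle markers were named outside these rules. Alternatives were the replicate number as a block, an intensity-trended robust prior, array weights, repeated quantile normalization, cyclic loess, median centring, a signal filter, other probe set rules, another threshold and each array left out. The number of arrays limits the precision.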

Additional observations from a re-analysis of the deposited data

How the results depend on the processing

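Of 17 alternatives, those that gave a value kept the signs of SOX7, SOX18, MEF2C, HHEX and PROX1, and of SOX17 minus PROX1, but the sizes moved: SOX18 ranged from −0.156 to −0.034, MEF2C from −0.158 to −0.032, HHEX from −0.182 to −0.023 and PROX1 from −0.186 to −0.012. Among the members, calls appeared in few settings, where 0 were called as deposited. With the intensity-trended robust prior 1 member probe set and 1 member gene were called, beside 2.74% of all genes. Cyclic loess plus that prior (chosen after the data were seen) gave the same member counts, beside 0.678% of all genes. The share of all probe sets called with that prior is not given here. Above the median signal 1 member gene was called, beside 0.246% of genes. In each case the gene was SOX7. Signs turned where differences were small. SOX17 was at −0.015 with array weights, −0.050 with arrays centred on their medians and −0.022 to 0.034 with 1 array left out. GATA2 was at −0.012 with centred arrays. TAL1 was at 0.060 after another round of quantile normalization, 0.053 after cyclic loess with either prior, 0.025 as the mean of its probe sets, 0.127 with no _s_at or _x_at probe sets, and −0.092 to 0.026 with 1 array left out. LMO2 was at 0.051 after the extra quantile round and 0.046 after cyclic loess with either prior. LDB2 was at 0.103 with no _s_at or _x_at probe sets, where SOX18 and LYVE1 had no value. Centring shifted the median of all genes to −0.05.

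The same-numbered arrays of the groups correlated at 0.06, 0.14 and −0.04 in their deviations from the group means, and 3 of 6 arrays were closest to their own number, so the numbers were not taken to pair the samples. With the replicate block SOX7 had an adjusted p of 0.173 and 0 members were called. Leaving out 1 array gave SOX7 −0.36 to −0.30. Dim probe sets such as those of PROX1 limit what could be seen, with a median residual SD of 0.12 in decile 3 of signal against 0.06 in decile 10.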
